A study of Homo sapiens with 15 samples.

Results

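The internal regions of human endogenous retroviruses (HERVs) are the stretches between the 2 long terminal repeats (LTRs) of an integrated provirus, and 36 of the 834 named repeats of the table (4.32%) belonged to them. They were taken by name: every repeat that starts with HERV but not with HERVL, and every other name that ends in "-int" and does not start with MER, MLT, MST, THE1, LTR, ERVL or HERVL. All 36 names ended in "-int". The names followed the RepeatMasker annotation of the genome, in which a name is shared by its copies and is not a single locus, so no coordinates belong to a member. Which copies a value rests on is not known. By what is known of these names, 25 members are class I elements (ERV1, related to gammaretroviruses), 8 are class II elements (ERVK, related to betaretroviruses), and 2, HERV16-int and ERV3-16A3_I-int, are class III elements (ERVL). The remaining member, MamGyp-int, is a mammalian Gypsy-type element and not a HERV, so the label does not hold for it.

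The series measured CpG methylation in DLD1, HCT116 and HCT8, which are 3 established cell lines from human colorectal cancers. For each of them there were 2 technical replicates grown without 5-azacitidine, 2 technical replicates at 1000 nM, and a lone library from cells at 500 nM. 5-Azacitidine is a cytidine analogue that traps DNA methyltransferases after it is built into DNA. No further treatment, genetic change or duration is given in the sources used here. Values were whole percents, and since their depth is unknown they carry no counting interval. Levels of named members were read in replicate 1 of untreated DLD1, the 1 library whose values followed the repeat names, and they therefore have no replicate check and no test.

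A provirus carries the genes gag, pro, pol and env in its internal region, and its LTRs hold the promoter and the polyadenylation signal. CpG methylation is a main means by which human cells keep these elements silent, and inhibitors of DNA methylation are known to raise HERV transcripts in cancer cells. Most copies in the genome have lost their internal region by recombination between the LTRs and remain as solitary LTRs. The value of an internal region and that of its LTRs therefore come from partly different loci.

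Whether a column followed the names was checked before any value was read. Across the 834 repeats, the Pearson correlation of the other 14 libraries with replicate 1 of untreated DLD1 lay between -0.060 and 0.041, and the technical replicate of the same untreated line gave 0.0048. Repeats of a library share its depth and sequence composition and are not replicates, so these correlations describe the table. The rows stand in alphabetical order, which puts related names next to each other. Neighbouring rows correlated at 0.29 in replicate 1 of untreated DLD1 and at -0.062 to 0.083 in the other libraries. The SD over the 17 AluS names, high-copy and closely related Alu elements, was 1.63 points in the first library and 7.81 to 25.0 points in the others. The other 14 columns were thus not shown to follow the names.

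**Figure D1:**
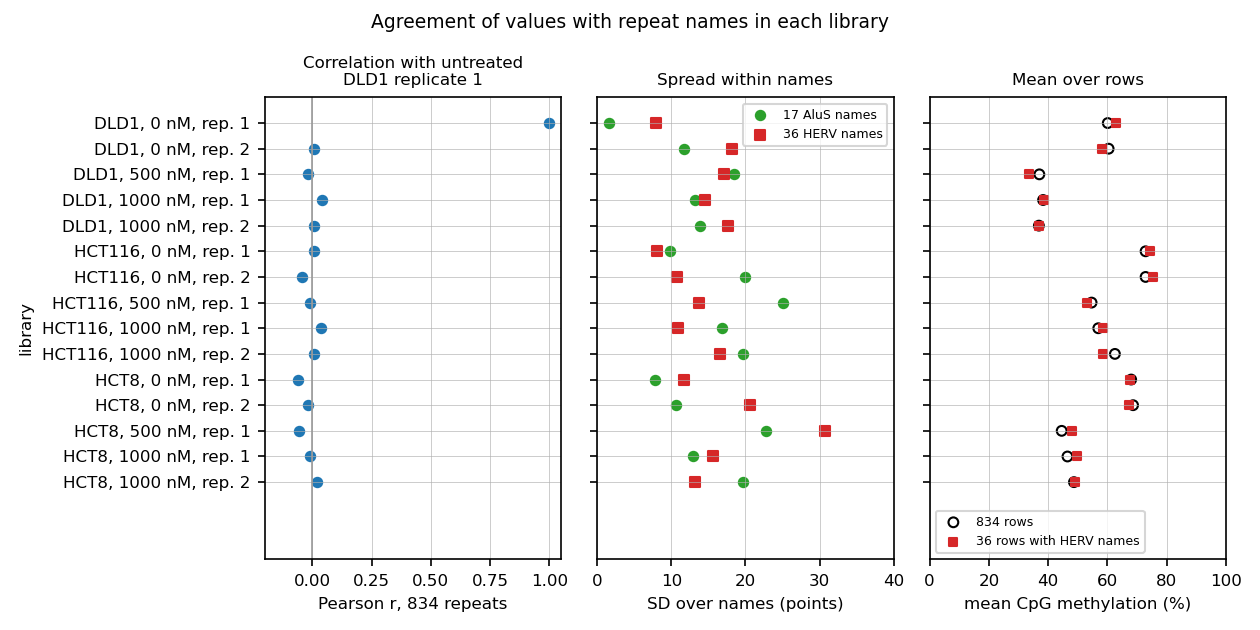
Agreement of values with repeat names in each of the 15 libraries (vertical axis). Left, Pearson correlation across 834 repeats with replicate 1 of untreated DLD1, which is 1 by construction for that library and between -0.060 and 0.041 for the others; middle, SD in percentage points over the 17 AluS names (circles) and the 36 HERV names (squares); right, mean CpG methylation in percent over all 834 rows (open circles) and over the 36 rows with HERV names (squares).

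The members showed no close agreement either. Over their 36 rows, the Pearson correlation with replicate 1 of untreated DLD1 ran from -0.37 to 0.42 in the other 14 libraries. This range is wider than over all rows, but correlations over fewer rows scatter more, so its width says nothing about the members. Between the untreated DLD1 replicates the members' listed values correlated at 0.13 (n = 36 names of the same libraries), differed by 14.8 points on average and agreed within 5 points for 7 of the 36. PRIMA4-int differed most, by 56 points. Over the 6 pairs of technical replicates, the mean absolute difference of the 36 rows ranged from 10.4 points in untreated HCT116 to 18.5 points in HCT8 at 1000 nM. The 36 rows had an SD of 7.93 points in replicate 1 of untreated DLD1 and of 8.06 to 30.8 points in the other libraries, the lowest being replicate 1 of untreated HCT116.

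In replicate 1 of untreated DLD1 the 36 members lay between 44% and 77%. Their mean was 62.8% with an SD over members of 7.93 points and a median of 62%, against a mean of 60.1%, an SD of 15.3 points and a median of 62% over all 834 repeats. The lowest member was HUERS-P3-int at 44%, and the highest were HERVK13-int and HERVH48-int at 77%. Of the 36 members, 17 (47.2%) lay above the library median, 3 at it and 16 below it. Over all repeats 48.9% lay above it and 47.7% below, so the members' split was close to that of the library. No member was listed at 0% or 100%, and 14 of all 834 repeats were. The 60 other internal regions and the 142 LTR names that are not internal regions also had no such value, so this was not particular to the members.

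Few members had low values. Of the 36, 1 lay under 50% (2.78%), compared with 144 of all 834 repeats (17.3%), while 8 lay at 70% or more (22.2%), close to the share of the library (209 repeats, 25.1%). The lack of low values was not particular to the members, since the lowest of the 8 LTR-named internal regions was at 51%. The HERVL and ERVL, the MER, and the MLT, MST and THE1 internal regions reached down to 45%, 37% and 16%. The spread was not particular to the members either. The 9 HERVL and ERVL internal regions had an SD of 6.76 points and the 8 LTR-named internal regions one of 9.01 points. From 50% to 59% there were 13 members, and from 60% to 69% there were 14. The middle quartiles of the members ran from 57% to 69% and those of the library from 54% to 69.8%.

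By class, the 25 class I members had the higher levels, with a median of 66% and a mean of 64.4% ± 7.58 (SD over members). Of these, 14 lay above the library median and 8 below. The 8 class II members had a median of 57.5% and a mean of 59.9% ± 9.19, with 3 above and 5 below. HERV16-int was at 56% and ERV3-16A3_I-int at 57%, and MamGyp-int was at 59%. The classes overlapped widely: both the lowest member and a member at the top value were class I, and HERVK13-int of class II shared that top value.

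**Figure D2:**
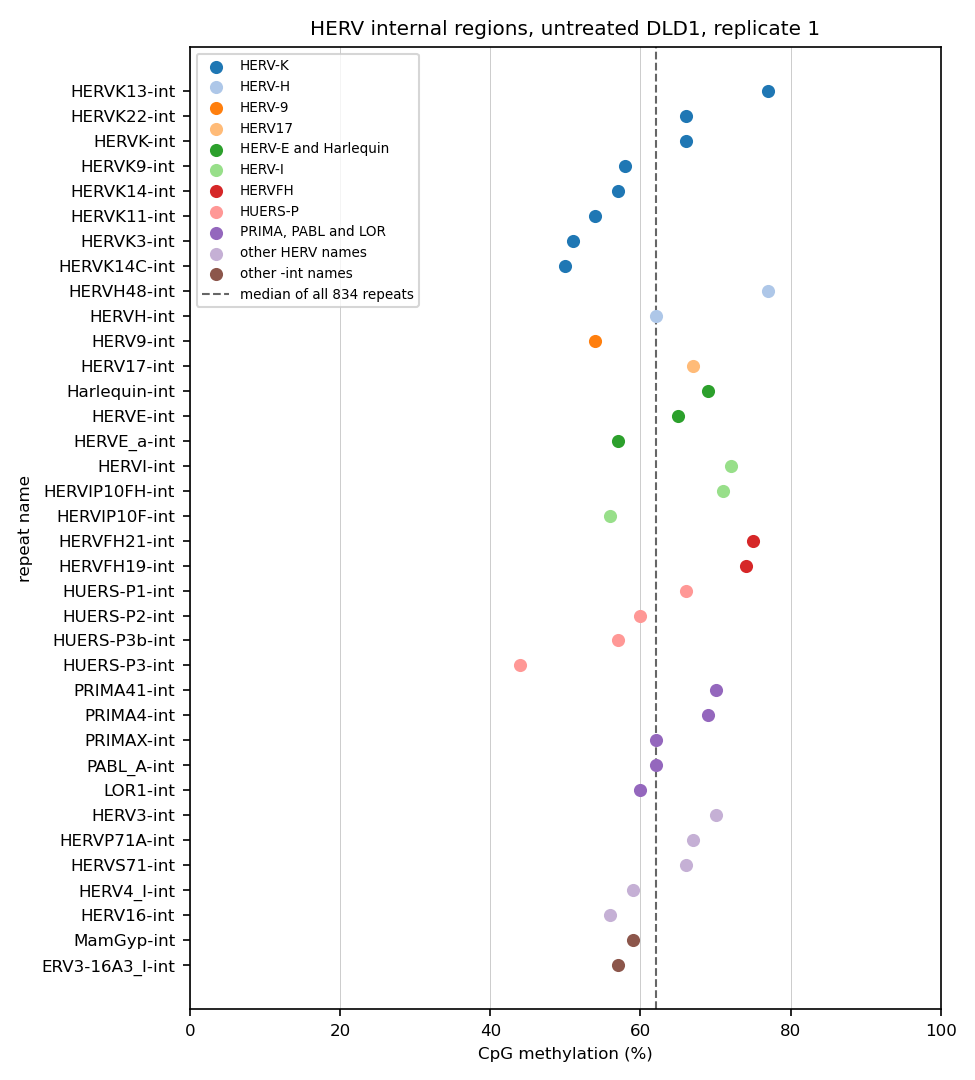
CpG methylation in percent (horizontal axis) of each of the 36 members (vertical axis) in replicate 1 of untreated DLD1, coloured by family, with the median of all 834 repeats (62%) as a dashed line. Each point is the deposited value of a name in 1 library; members range from 44% for HUERS-P3-int to 77% for HERVK13-int and HERVH48-int.

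HERV-K is named for the lysine transfer RNA that primes its reverse transcription and holds the human betaretrovirus-like groups, numbered HML-1 upward. Its 8 internal regions ranged over 27 points. HERVK-int (HML-2), the group with the youngest insertions and the most complete open reading frames in the human genome, was at 66%. HERVK22-int (HML-5), an old group of the class, was also at 66%, and HERVK13-int (HML-4) was at 77%. These 3 were the HERV-K members above the library median.

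The other 5 lay below it. HERVK9-int (HML-3) was at 58% and HERVK14-int (HML-1) at 57%. HERVK11-int (HML-8) was at 54%, HERVK3-int (HML-6) at 51% and HERVK14C-int (HML-9) at 50%. Of all 36 members only HUERS-P3-int was lower than the last 2. HERVK14-int and HERVK14C-int, which share a name stem, were 7 points apart.

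HERV-H, named for a histidine primer, is an abundant class I family whose transcripts are known from pluripotent cells and from colorectal tumours. HERVH-int was at 62%, the library median. HERVH48-int, whose family gave rise to the placental gene ERVH48-1 (suppressyn), was at 77%, 15 points higher. The pair averaged 69.5%, a value that neither name is near.

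HERV-9 is a class I family best known for its LTR12 ends, which can act as promoters of neighbouring human genes. Its 1 internal region in the table, HERV9-int, was at 54%, 8 points under the library median. HERV17-int is the internal region of the HERV-W family, from which the placental fusion protein syncytin-1 derives. It was at 67%, 5 points above the median and 13 points above HERV9-int. Each of these families has 1 name here, so that no spread within a family can be given.

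The 24 members outside these 4 families averaged 63.5% ± 7.32 (SD over members), with 12 above the library median, 2 at it and 10 below. The HERVFH names were the highest group: HERVFH21-int was at 75% and HERVFH19-int at 74%. Among the HERV-I names, called after an isoleucine primer, HERVI-int was at 72% and HERVIP10FH-int at 71%. HERVIP10F-int was 15 points below HERVIP10FH-int, at 56%.

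HERV-E is a class I family with LTR2 ends whose transcripts are known from clear cell renal carcinoma. HERVE-int was at 65% and HERVE_a-int at 57%. Harlequin-int, a mosaic element that shares LTR2 with HERV-E, was at 69%. These 3 names spanned 12 points.

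The HUERS-P names, class I elements with a proline primer, were the lowest group of more than 2 members, with a mean of 56.8% ± 9.29 (SD over 4 members). HUERS-P1-int was at 66%, HUERS-P2-int at 60% and HUERS-P3b-int at 57%. HUERS-P3-int, at 44%, was the lowest of all 36 members and lay 13 points below HUERS-P3b-int.

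The PRIMA, PABL and LOR names, also class I, spanned 10 points. PRIMA41-int was at 70%, PRIMA4-int at 69%, PRIMAX-int and PABL_A-int at 62% and LOR1-int at 60%. Among the other HERV names, HERV3-int was at 70%; this family includes the locus ERV3-1, whose envelope gene has kept a long open reading frame. HERVP71A-int was at 67%, HERVS71-int at 66% and HERV4_I-int at 59%.

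Names that differ by a letter or a number were thus as far apart as names of different families in some cases and almost equal in others. The HERVFH names and the pair PRIMA4-int and PRIMA41-int differed by 1 point each. HERVE-int and HERVE_a-int differed by 8 points, and HERVH-int and HERVH48-int, like HERVIP10F-int and HERVIP10FH-int, by 15 points. The only yardstick for scatter within this library is the SD of 1.63 points over the AluS names. Alu elements have far more copies than any HERV internal region, so the scatter of a member with few copies can be larger, and its size was not measured.

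For 24 of the 36 members at least 1 LTR with a row of its own was assigned, with 58 LTR names in all. The partners were assigned by general knowledge of the RepeatMasker families, and the other 12 members were left unpaired. The assignment is not complete, since LTR2, which Harlequin-int shares with HERV-E, has a row at 65% and was paired with HERVE-int only. LTR names that share a number with an unpaired member also have rows and were not assigned. Examples are the LTR16 names beside HERV16-int, and the LTR10 names beside HERVIP10F-int and HERVIP10FH-int. The counts below hold only for the pairs made. The internal region was higher than the mean of its LTRs in 12 families and lower in 12. The mean difference, internal region minus LTRs, was 1.76 points with an SD over families of 15.1 points, and the median difference was -0.25 points. No general offset between internal regions and LTRs was thus seen in these 24 families. The mean over families was 62.9% for the internal regions and 61.2% for the LTRs.

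Single families differed far more than the average. The difference reached 10 points in 10 of the 24 families, 5 in each direction. Among the 16 families with 2 or more LTR names, only HERVFH19-int, HUERS-P3-int, HERV9-int and HERVP71A-int reached it. The others that did have 1 LTR name each, so their difference rests on 1 LTR value of unknown depth. Of the families with 1 LTR name, only HERV17-int and PRIMA4-int stayed under 10 points. Whether the difference depends on the number of LTR names was not tested. HERVFH19-int at 74% stood 34.3 points above the mean of its LTRs, of which LTR19A was at 62%, LTR19B at 35% and LTR19C at 22%. HERV3-int at 70% was 26 points above LTR4 at 44%. HERVK22-int at 66% was 25 points above LTR22A at 41%.

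HERVK14C-int at 50% was 21 points above LTR14C at 29%, the LTR name lower than any other of the 58 except LTR19C. HERVS71-int at 66% was 18 points above LTR6A at 48%. In these 5 families the internal region was the more methylated part, although HERVK14C-int itself was among the lowest members.

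In the other 5 families with a difference of at least 10 points the LTRs were the more methylated part. HERVK3-int at 51% was 32 points below LTR3B_ at 83%. HUERS-P3-int at 44% was 16 points below the mean of its LTRs, with LTR9 at 56% and LTR9B at 64%. PABL_A-int at 62% was 12 points below PABL_A at 74%. HERVP71A-int at 67% was 10 points below the mean of LTR71A at 81% and LTR71B at 73%.

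HERV9-int was 15 points below the mean of its 7 LTR names and lay below every one of them. LTR12C was the highest of these at 79%, followed by LTR12E at 76% and LTR12D at 72%. LTR12_ was at 69%, LTR12F at 66% and LTR12 at 63%. The lowest, LTR12B at 58%, was still 4 points above the internal region.

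HERVH-int, HERVK-int and HERV17-int lay nearer to their LTRs, by mean differences under 10 points. HERVH-int at 62% equalled LTR7, the consensus with the plain name, and lay just under LTR7Y at 63%, while LTR7B was at 77%. HERVK-int at 66% lay within the range of its LTRs. LTR5A was at 61%, LTR5_Hs, the youngest form, at 65%, LTR5B at 68% and LTR5 at 81%. HERV17-int at 67% was 7 points below LTR17 at 74%.

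Where 2 or more LTR names were assigned to a family, the internal region lay within their range, ends included, in 10 of 16 families. HERVK14-int at 57% lay between LTR14B at 45% and LTR14 at 83%, with LTR14A at 59%. HERVK13-int at 77% lay below LTR13A at 81% and above LTR13 at 68% and LTR13_ at 66%. HERVFH21-int at 75% lay between LTR21A at 60% and LTR21B at 82%. HERVK9-int at 58% lay between MER9a2 at 39% and MER9a1 at 60%, and HERVK11-int at 54% between MER11B at 53% and MER11C at 67%. PRIMA41-int at 70% was above all 6 of its LTR names, of which MER41B was the lowest at 56% and MER41C the highest at 69%.

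Across the 24 families the level of the internal region and the mean level of its LTRs had a Pearson correlation of 0.059 and a Spearman correlation of 0.14. The points share 1 library and its unknown depth, and families differ in their number of LTR names and of copies, so these are descriptions. LTR names were more dispersed than internal regions, with an SD of 12.9 points over the 58 names against 8.30 points over the 24 internal regions. They ran from 22% for LTR19C to 83% for LTR14 and LTR3B_.

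**Figure D3:**
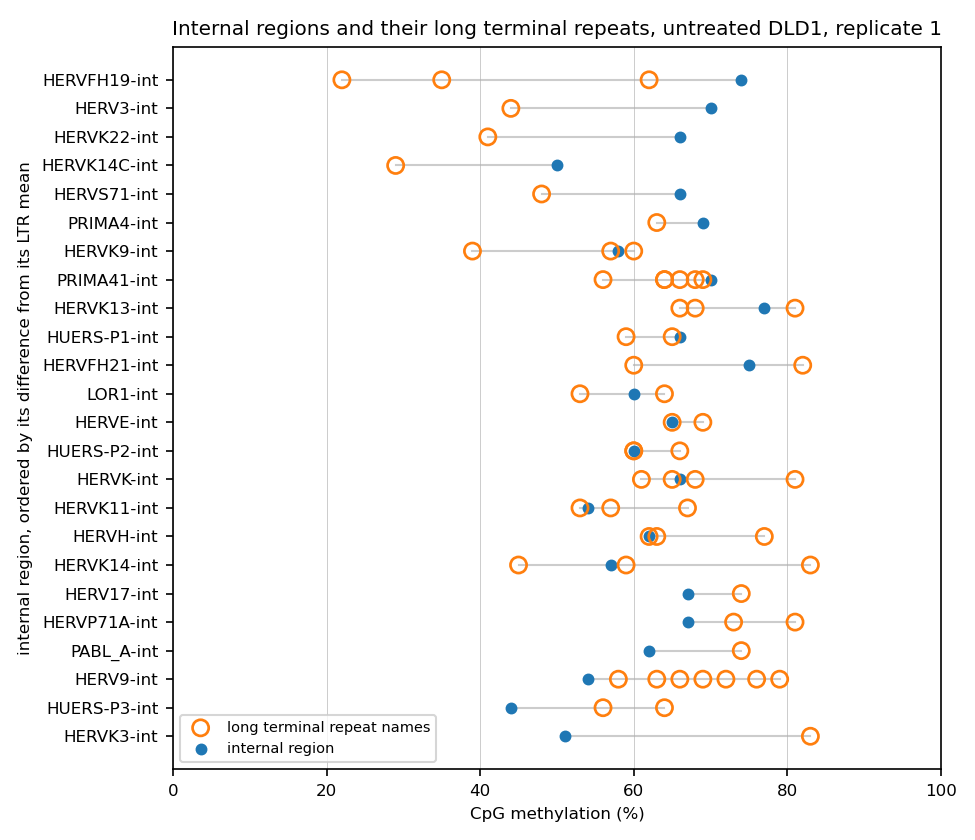
CpG methylation in percent (horizontal axis) of 24 internal regions (filled points) and of each of their LTR names (open circles) in replicate 1 of untreated DLD1; families (vertical axis) are ordered by the internal region minus the mean of its LTRs. From HERVK3-int at the bottom, 32 points below LTR3B_, to HERVFH19-int at the top, 34.3 points above its LTRs, 12 families lie on each side of 0.

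The other internal regions of the table were lower on average. The 60 internal regions whose names start with MER, MLT, MST, THE1, LTR, ERVL or HERVL averaged 55.9% ± 11.8 (SD over names), with 39 of 60 below the library median, against 16 of 36 members. Among the lists compared, the gap was widest to those made of class III names. The 27 MLT, MST and THE1 internal regions had a median of 51% and ran from 16% to 83%. The 9 HERVL and ERVL internal regions had a median of 52% and ran from 45% to 66%. The lists named for MER and LTR were not split by class. The class III members HERV16-int and ERV3-16A3_I-int, at 56% and 57%, lay nearer to these medians than to the class I median of 66%. They lay nearer still to the class II median of 57.5%, so their values do not set them with the class III names.

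Internal regions named for MER elements had a median of 60% over 16 names, and those named for LTRs a median of 65% over 8 names, and most of their values lay within the members' range; MER52-int at 37%, MER61-int at 39% and MER110-int at 42% lay below it. LTR names that are not internal regions had the same median as the members, 62% over 142 names, but a wider range, from 22% to 84%. All of these are levels within 1 library, with no test of the differences.

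**Figure D4:**
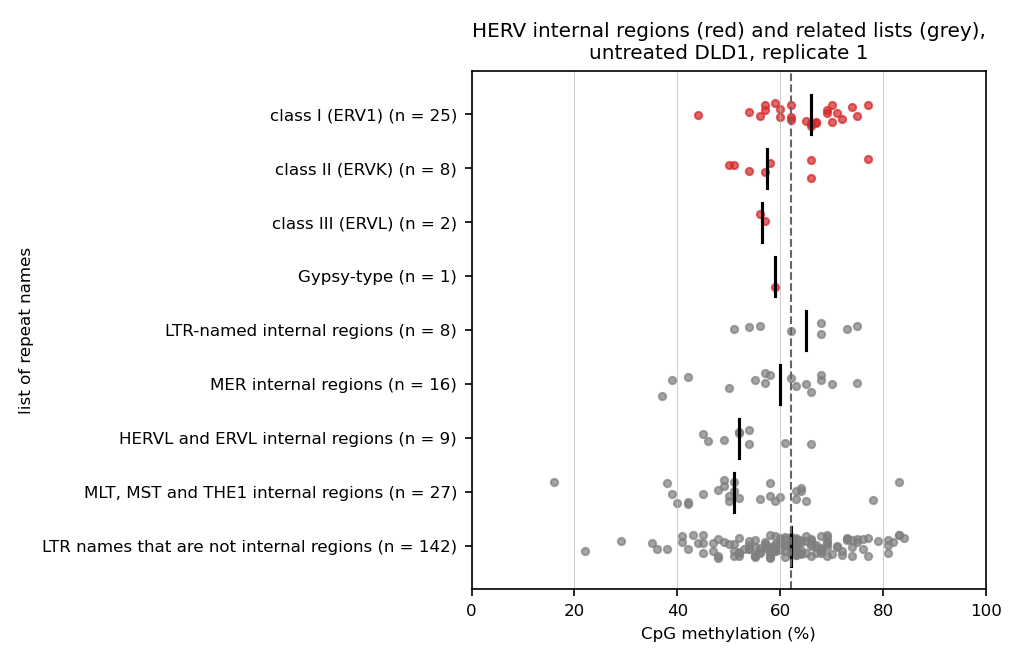
CpG methylation in percent (horizontal axis) in replicate 1 of untreated DLD1 for the 36 members by class (red) and for related lists of names (grey); each point is a name, black bars are list medians and the dashed line is the median of all 834 repeats. Class I members (median 66%) and LTR-named internal regions (65%) sit to the right, and the HERVL and ERVL (52%) and the MLT, MST and THE1 internal regions (51%) to the left; vertical scatter within a list has no meaning.

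The response of the members to 5-azacitidine could not be read by name. The rows that bear their names averaged 62.8% and 58.3% in the untreated DLD1 replicates, 33.7% at 500 nM, and 38.5% and 37.1% at 1000 nM. Over all 834 rows the same libraries averaged 60.1%, 60.4%, 37.0%, 38.3% and 36.9%. In the 14 libraries not shown to follow the names, the mean of these 36 rows differed from that of all rows by -4.00 to 3.63 points. In other words, the 36 rows were lower in the treated DLD1 libraries to about the extent that all rows were, and nothing particular to HERVs can be taken from them.

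Single rows illustrate why. In DLD1 the row named HERV17-int was listed at 67% and 49% without drug, 22% at 500 nM, and 47% and 0% in the replicates at 1000 nM. The last 2 values come from technical replicates of the same treatment and were 47 points apart. The row named HERVK-int was listed at 66% and 74% without drug, at 30% with 500 nM, and at 27% and 30% with 1000 nM. Here the treated and untreated libraries did not overlap and the replicates lay close together. In DLD1 the rows named HERV17-int, HERVH-int and HERV9-int did not overlap either, so this was not particular to the row named HERVK-int. The share of all rows without overlap was not counted, and the mean over all rows was also lower in the treated libraries. The columns of the last 4 libraries were not shown to follow the names, and the row named HERVK-int is not read as a result for HERV-K.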

How the data were processed

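Per the labels' protocols, bisulfite-converted DNA was read from both ends, 75 bp each, on a MiSeq. The submitters' processing notes name BSMAP 2.74, Picard 1.8.4 and the build hg19, without their roles. The authors deposited percent CpG methylation per RepeatMasker name, rounded to whole percents; how reads, CpGs and copies were combined is not given in the sources used here. Of 835 rows, 1 without a name (0.12%) was left out.

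Members were chosen by name, and families, classes and LTR partners from general knowledge; the members and lists were chosen with earlier results of these data known, and the split into classes and the comparison lists were set after the values were seen. All members are named, by a rule that names every member of HERV-K, HERV-H, HERV-9 and HERV17, the 10 highest and lowest of the rest, and LTRs that differ by 10 points or more; other LTRs were named after their values were seen. Lists are given by mean, SD over names, median and counts around the library median, and correlations across names as descriptions. No test was made, since 1 library was read. Simulated data were used only to try the correlation of ordered and shuffled rows and the means of lists. The choice of members and the LTR pairing were not tried in this way. The calculations used Python 3.11.15, numpy 2.4.6, pandas 2.3.3 and scipy 1.17.1. No sequences of these repeats were used here.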

Additional observations from a re-analysis of the deposited data

How the results depend on the processing

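Means over the members and the families, and the mean difference from the LTRs, were recomputed with medians, on the logit scale (offset 1 point), without the extreme members, without the ERVL-class names, without values of 0% or 100%, with names ending in "-int" only, and with other choices of LTR partners. Of the 37 values so obtained, 22 could not or did not change, for example because all names end in "-int", no member or partner was at 0% or 100%, and HERV-9 and HERV17 have 1 name each; these say nothing about stability. The other 15 moved by at most 2.38 points, the median of HERV-K, and each by less than the SD over its members or families. That SD is a wide bound for summaries of mostly the same values, so staying under it says little about stability. Without MamGyp-int and the ERVL-class names, an alternative chosen after seeing the data, the mean of the members was 63.3%.

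The read library has no usable replicate. In replicate 2 of untreated DLD1, which was not shown to follow the names, the same rows gave 58.3% for all members, 54.6% for HERV-K, 67.5% for HERV-H, 73% for HERV9-int, 49% for HERV17-int, 58.5% for the remaining members and -1.82 points for internal regions minus LTRs. The order of HERV9-int and HERV17-int was thus turned around in those rows. The highest correlation of another library with the read one was 0.041, 0.040 as Spearman's rho and 0.078 without values of 0% or 100%. No paired analysis was possible because the results come from no test. The unknown depth limits every value.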
